A study of Mus musculus with 12 samples.

Results

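The TAM receptors and the secreted proteins that bridge apoptotic cells to phagocytes were followed through bile duct ligation (BDL) in GFP(+) liver cells. The 6 genes were taken by symbol as *Axl*, *Mertk*, *Tyro3*, *Gas6*, *Pros1* and *Mfge8*, and all 6 were found among the 16971 genes of the deposited table. Of these, 5 passed a minimum of 10 normalized counts summed over the libraries, which 12889 genes in all passed, and *Tyro3* did not.

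The mice carried Prom1CreERT2-nLacZ/+;Rosa26Lsl-GFP/+ in every group, and the labels give the background as C57BL/6. By the study's methods the *Prom1* allele came on C57BL/6N and the GFP reporter on C57BL/6J, so the crossed mice mix both substrains. In this line *Prom1*-expressing cells make a tamoxifen-dependent Cre recombinase from the *Prom1* locus, which turns on GFP in them and in their progeny, so the label rests on where that locus was active at the time of injection. Tamoxifen was given to all mice at 6 weeks of age, 7 days before surgery. Livers were taken at day 0 in the group labelled sham, and 3 or 14 days after BDL, an operation that blocks the flow of bile. The controls thus carried the same alleles and received the same drug. GFP(+) cells were sorted from the nonparenchymal fraction for mRNA sequencing. Of 12 libraries in the labels, 3 belong to day 0, 3 to BDL day 3 and the other 6 to BDL day 14. The group means in the table rest on 10 of them, since 2 libraries of BDL day 14, which are not named, were left out for too few reads. By the study's description both sexes were present in each group in unequal proportions, so sex and time after BDL cannot be fully told apart.

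The table gives 1 authors' mean per group of counts normalized by the upper quartile method, here called normalized counts, with the arithmetic mean, the geometric mean and the highest single library over all groups. Where 3 means of a gene or sums of a list follow each other, they are those of day 0, BDL day 3 and BDL day 14 in this order. How many reads each library held is not known. Without values per library no test between groups could be made, and every difference below is a description. The gap between the arithmetic and the geometric mean grows with the spread of the libraries, so it gave an estimate of the spread within groups on the log2 scale, taken as equal in the groups. This spread gave an approximate standard error (SE) for each log2 ratio of group means. The same quantities, with the highest library, set outer limits on what any single library could have held. From them it could be worked out whether the libraries of any pair of groups could overlap at all. The median within-group spread was 0.58 on the log2 scale over all genes that passed the minimum.

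AXL, MERTK and TYRO3 are receptor tyrosine kinases found on macrophages and other cells. Their ligands are GAS6, which binds each of them, and protein S, the product of *Pros1*, which is a ligand of MERTK and TYRO3. Both ligands in turn hold on to phosphatidylserine, a lipid that dying cells expose on their surface. MFG-E8, the product of *Mfge8*, does the same for integrins of the alpha v family. In the liver, engulfment through these routes clears dying cells and is coupled to the damping of cytokine signalling in the phagocyte.

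Per the authors' table on mm10, *Axl* lies at chr7:25757273-25788705 on the minus strand, *Mertk* at chr2:128698956-128802894 on the plus strand and *Tyro3* at chr2:119797733-119818104 on the plus strand. *Gas6* lies at chr8:13465374-13494490 on the minus strand, *Pros1* at chr16:62854307-62929346 on the plus strand and *Mfge8* at chr7:79133768-79149060 on the minus strand. All 6 are protein coding. *Gas6* shares 34 exon bases with *Tmem255b* on the other strand, whose own means were 1.10, 0.0729 and 0.812 normalized counts. Whether reads were counted by strand is not given in the sources used here. *Mertk* overlaps an antisense gene and a small nucleolar RNA gene, neither of which shares exon bases with it.

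The 250 bases before the RefSeq start site (GRCm38.p6) are shown for *Gas6*, *Pros1*, *Mfge8* and *Axl*. Of these, the ligand genes had their lowest mean at BDL day 3 and *Axl* its highest. The windows lie at chr8:13494536-13494785 (minus strand), chr16:62854057-62854306 (plus strand), chr7:79149061-79149310 (minus strand) and chr7:25788734-25788983 (minus strand). Capitals mark GGGCGG on either strand, the core of an Sp1 site, and neighbouring matches can overlap.
Gas6: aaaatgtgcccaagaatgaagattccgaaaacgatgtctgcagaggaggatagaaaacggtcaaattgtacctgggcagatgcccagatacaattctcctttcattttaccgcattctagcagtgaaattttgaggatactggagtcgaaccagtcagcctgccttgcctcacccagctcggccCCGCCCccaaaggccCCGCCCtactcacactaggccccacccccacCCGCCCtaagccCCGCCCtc
Pros1: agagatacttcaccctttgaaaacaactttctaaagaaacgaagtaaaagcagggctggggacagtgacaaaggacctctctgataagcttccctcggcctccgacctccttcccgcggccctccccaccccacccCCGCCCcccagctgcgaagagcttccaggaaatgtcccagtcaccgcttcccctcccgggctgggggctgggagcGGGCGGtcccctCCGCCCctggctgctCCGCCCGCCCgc
Mfge8: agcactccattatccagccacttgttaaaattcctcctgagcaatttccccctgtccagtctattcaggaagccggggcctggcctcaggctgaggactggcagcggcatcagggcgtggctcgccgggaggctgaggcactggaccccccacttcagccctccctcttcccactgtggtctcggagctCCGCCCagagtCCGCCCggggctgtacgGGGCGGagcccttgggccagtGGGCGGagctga
Axl: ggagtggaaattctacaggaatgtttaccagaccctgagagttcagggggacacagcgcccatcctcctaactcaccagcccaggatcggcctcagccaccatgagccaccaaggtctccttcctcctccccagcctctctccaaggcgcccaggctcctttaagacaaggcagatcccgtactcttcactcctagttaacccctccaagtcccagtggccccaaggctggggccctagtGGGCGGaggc

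The GGGCGG letters were found 4 times before *Gas6*, 5 times before *Pros1*, 4 times before *Mfge8* and 1 time before *Axl*. *Mertk* and *Tyro3* had 3 matches each, so all 6 genes held the motif, against 32.9% of 27025 promoters of the same length. Of the 250 bases of the *Tyro3* window, 128 lay in annotated exons of *Tyro3* itself. The match of *Axl* began 10 bases before the start site, and those of *Gas6* began between 8 and 66 bases before it. The 4 printed windows were 54.8% (*Gas6*), 64.4% (*Pros1*), 65.2% (*Mfge8*) and 60.0% (*Axl*) G or C, with a median of 52.0% over all promoters. The AP-1 letters TGANTCA, the TATA letters TATAAA, the E-box CACGTG and the NRF2 letters TGACNNNGC were in none of the 6 windows on either strand, and they were in 6.87%, 13%, 6.05% and 10.1% of all promoters. The PU.1 letters GAGGAA were present before *Axl* and *Mfge8* (23.1% of all promoters), the TEAD letters GGAATG before *Axl* (12.6%) and the STAT letters TTCNNNGAA before *Pros1* (7.18%).

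By their means, the receptors *Axl* and *Mertk* were higher and the 3 ligands lower at BDL day 3 than at day 0. For *Pros1* this was a log2 ratio of -0.85 with an approximate SE of 0.50. At BDL day 14, under the authors' scaling, all 5 genes that passed the minimum were within 1.5-fold of day 0. *Axl* and *Mertk* were higher by more than 1.5-fold at BDL day 3, as were 19.2% of all genes that passed the minimum. *Gas6*, *Pros1* and *Mfge8* were lower by more than 1.5-fold, as were 29.2% of all genes. The median log2 ratio of the 5 genes was -0.85, against -0.02 over all genes. That median is the value of *Pros1* in a set with 2 genes higher and 3 lower, so it describes no common shift. Of the 5, the libraries of BDL day 3 could not overlap those of day 0 for *Axl*, which was higher, and for no gene that was lower. Over all genes this held for 2.93% in the higher and 2.49% in the lower direction.

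*Axl*, the TAM receptor best known for its induction by inflammation, had authors' means of 339 normalized counts at day 0, 796 on day 3 of BDL and 358 at BDL day 14. Its highest library held 944 normalized counts, a value that the group means and the geometric mean, used jointly, place at BDL day 3. Taken separately, each day 0 library lay between 203 and 497, each BDL day 3 library between 455 and 944 and each BDL day 14 library between 210 and 541. The outer ends of these limits could not be reached together. Given all the deposited means, no arrangement of the libraries let BDL day 3 overlap day 0 or BDL day 14. The BDL day 3 mean was 2.35-fold that of day 0, a log2 ratio of 1.23 ± 0.24 (approximate SE), and without the highest library the BDL day 3 mean was 722 and the log2 ratio 1.09. The log2 ratio of BDL day 14 to day 0 was 0.08 ± 0.23, less than its SE. The within-group spread of *Axl* was 0.30 on the log2 scale, which put it at percentile 21.6 among the 282 genes with a mean within 2-fold of its own.

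*Mertk*, the receptor that resident macrophages use for the uptake of dying cells, had authors' means of 92.2 normalized counts at day 0, 156 on day 3 of BDL and 134 at BDL day 14. Its highest library held 170 and could lie in either BDL group but not at day 0. Day 0 libraries lay between 45.7 and 149, those of BDL day 3 between 78.8 and 170 and those of BDL day 14 between 64.5 and 170, so the groups could overlap. BDL day 3 was at 1.69-fold the day 0 mean (log2 ratio 0.76 ± 0.28). At BDL day 14 the ratio was 1.45-fold (log2 ratio 0.54 ± 0.26), and BDL day 14 was below BDL day 3 by less than the SE (log2 ratio -0.22 ± 0.26). The BDL day 3 ratio was under 1.5-fold with quantile normalization (log2 0.46) and with scaling to the summed signal without the 100 highest genes (log2 0.56).

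*Tyro3*, a TAM receptor best known from the nervous system, was near the lower end of detection. Its authors' means were 0.861, 0.155 and 0.801 normalized counts, and they summed to 6.25 over the 10 libraries. The highest library held 2.31 normalized counts, which would be 89.4% of the day 0 sum or 72.1% of the BDL day 14 sum. Were that library at day 0, the mean of the other day 0 libraries would be 0.137, below the BDL day 3 mean. The BDL day 3 mean was also under the floor of that group, which was set at 4 times its lowest listed mean and came to 0.292. With a within-group spread of 1.71 on the log2 scale, no order of the groups can be read for *Tyro3*.

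**Figure D1:**
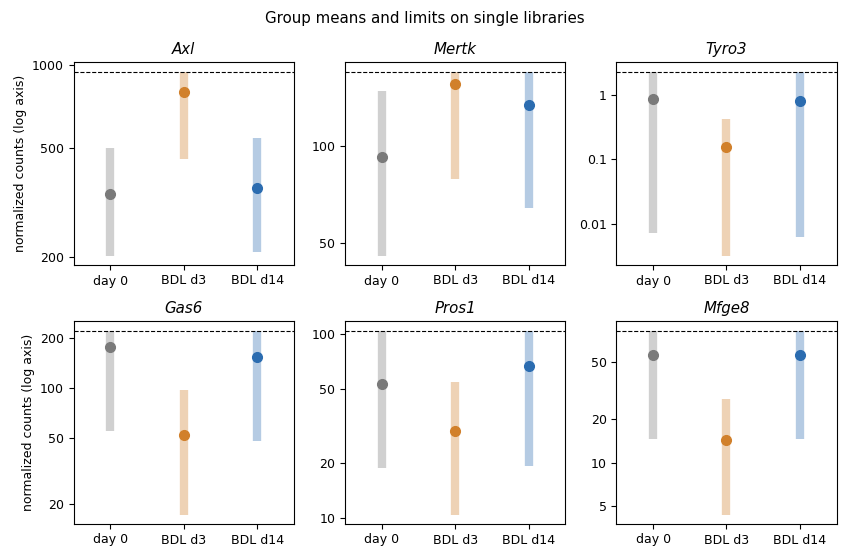
Authors' mean normalized counts of each group (points, log axis) for the 6 genes, with the outer limits on any single library of the group (pale bars) and the highest library over all groups (dashed line). *Axl* and *Mertk* were highest at BDL day 3, while *Gas6*, *Pros1* and *Mfge8* were lowest there. The pale bars are limits and not error bars, and the pale bars of *Axl* cross although its BDL day 3 libraries could not overlap the others once all the means are used jointly.

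*Gas6* encodes the ligand that binds all TAM receptors. Its authors' means were 176 normalized counts at day 0, 51.9 on day 3 of BDL and 154 at BDL day 14. The highest library, with 222 normalized counts, could lie at day 0 or BDL day 14 but not at BDL day 3. No BDL day 3 library could hold more than 97.4, while those of day 0 could be as low as 55.3 and those of BDL day 14 as low as 47.6, so an overlap remained possible. The BDL day 3 mean was 3.39-fold lower than that of day 0 (log2 ratio -1.76 ± 0.45), and 87.9% of all genes had a higher log2 ratio. BDL day 14 was 2.97-fold above BDL day 3 (log2 ratio 1.57 ± 0.42) and differed from day 0 by less than the SE (log2 ratio -0.19 ± 0.42).

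*Mfge8* had authors' means of 56.0, 14.3 and 56.8 normalized counts. The highest library held 83.5 and could not lie at BDL day 3, where no library could exceed 27.6. Limits at day 0 were 14.6 and 83.5, so an overlap was possible here too. The BDL day 3 mean was 3.92-fold lower than that of day 0 (log2 ratio -1.97 ± 0.52), the largest difference among the 5 genes in this comparison. The log2 ratio of BDL day 14 to BDL day 3 was 1.99 ± 0.49, and that of BDL day 14 to day 0 was 0.02 ± 0.49.

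*Pros1* encodes protein S, which is also an anticoagulant of plasma that hepatocytes and endothelial cells make. The authors' means were 53.2, 29.6 and 66.5 normalized counts. Its highest library held 104, which would be 65.2% of the day 0 sum or 39.1% of the BDL day 14 sum. At BDL day 3 it was 1.80-fold lower than at day 0 (log2 ratio -0.85 ± 0.50), and had that library been at day 0, the mean of the other day 0 libraries would be 27.8, below the BDL day 3 mean. BDL day 14 was 2.25-fold above BDL day 3 (log2 ratio 1.17 ± 0.47). The spread within groups was 0.55 on the log2 scale for *Gas6*, 0.61 for *Pros1* and 0.64 for *Mfge8*, against 0.30 and 0.34 for *Axl* and *Mertk*.

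Between BDL day 14 and day 0, 0 of the 5 genes were past 1.5-fold in either direction, while 21.2% of all genes were higher and 28.8% lower. Libraries that could not overlap were found for 0 of the 5, against 3.17% of all genes in the higher and 3.37% in the lower direction. With each group scaled to the same summed signal, *Mertk* (log2 ratio 0.87) and *Pros1* (0.65) were past 1.5-fold. For *Axl*, *Gas6* and *Mfge8* the sign of this difference turned with the scaling, so no direction is given. Between BDL day 14 and BDL day 3, *Gas6*, *Pros1* and *Mfge8* were higher by more than 1.5-fold, as were 21.2% of all genes. *Axl* was 2.22-fold lower (log2 ratio -1.15 ± 0.23), and 19.7% of all genes were lower by more than 1.5-fold. *Axl* was the 1 gene of the 5 whose libraries could not overlap between these groups, in the lower direction, against 2.25% of all genes, and 0 did so in the higher direction, against 1.66%. The median log2 ratio of the 5 genes was 0.08 for BDL day 14 against day 0 and 1.17 for BDL day 14 against BDL day 3, and over all genes it was -0.04 and -0.00. The comparisons share groups, so they are not independent of each other.

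**Figure D2:**
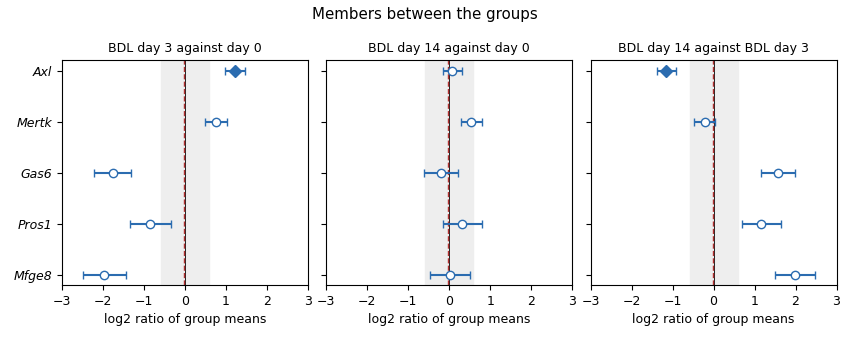
Log2 ratios of the authors' group means (points) with the approximate SE (bars) for the 5 genes that passed the minimum, in the 3 comparisons. The grey band marks less than 1.5-fold, the dashed red line is the median of all genes, and filled diamonds mark *Axl*, whose libraries could not overlap between the groups compared. At BDL day 3 *Axl* and *Mertk* lay to the right and the ligands to the left of the band, and at BDL day 14 against day 0 all 5 points lay within it.

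Levels of different genes can be compared only per length, here as normalized counts per kilobase of exon (GENCODE M21). At day 0, *Gas6* (69.1 per kilobase) and *Axl* (67.4) were the highest and differed by less than the SE of their log2 difference. *Mertk* (21.3), *Pros1* (13) and *Mfge8* (11.9) followed, with neighbouring levels closer than 2 SE, and *Tyro3* was at 0.139. At BDL day 3 the order was *Axl* (158), *Mertk* (36.0), *Gas6* (20.4), *Pros1* (7.24), *Mfge8* (3.05) and *Tyro3* (0.0250), and each neighbouring pair differed by more than 2 SE. The SE between genes holds only the spread of the libraries and takes the length of all annotated exons as exact. At BDL day 14 *Axl* (71.1) and *Gas6* (60.4) again differed by less than the SE, *Mertk* stood at 30.9, and *Pros1* (16.3) and *Mfge8* (12.1) differed by less than the SE. The level of *Axl* per kilobase was 0.975, 7.76 and 1.18 times that of *Gas6* at the 3 time points. *Gas6* was 3.25, 0.566 and 1.96 times *Mertk*. Of the summed receptor level per kilobase, *Axl* made up 75.9%, 81.5% and 69.6% in the 3 groups, and *Mertk* made up 24.0%, 18.5% and 30.2%.

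**Figure D3:**
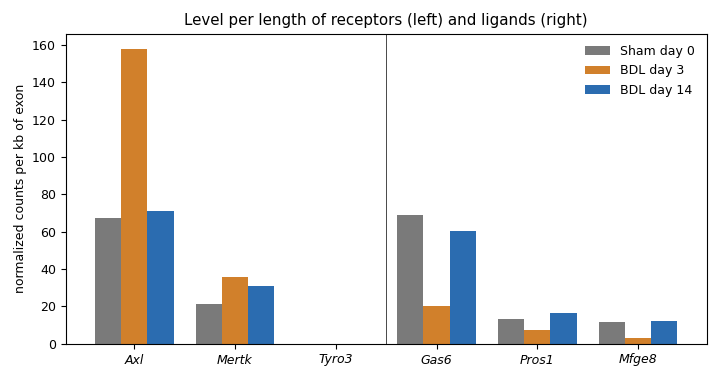
Normalized counts per kilobase of exon in each group for the receptors (left of the line) and the bridging ligands (right of it), from the authors' group means with no error bars. *Axl* and *Gas6* were level at day 0 (67.4 and 69.1) and apart at BDL day 3 (158 and 20.4).

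By the distance between pairs of log2 ratios (BDL day 3 and BDL day 14, each to day 0), the genes closest to *Axl* were *Rnf180*, *Ltc4s* and *Tmem86a*, with distances of 0.02, 0.04 and 0.04. Those closest to *Gas6* were *P4htm*, *Slco3a1* and *Hoxa4* (0.02, 0.04 and 0.07), those closest to *Mfge8* were *Rtkn*, *Nav1* and *Gng11* (0.04, 0.06 and 0.06), and those closest to *Pros1* were *Gm38394*, *2900089D17Rik* and *Vbp1* (0.01, 0.02 and 0.02). *Mertk* lay in a denser region, with 398 genes within 0.2, against 38 for *Axl*, 41 for *Gas6*, 55 for *Pros1* and 28 for *Mfge8*. Closest to *Mertk* were *Pqlc2*, *Limk1* and *Gapdh*, the glycolytic gene often used as a reference, with distances of 0.01, 0.01 and 0.02. The authors' means of *Gapdh* were 637, 1080 and 916 normalized counts. Each of these likenesses rests on 3 group means. The distances were below the SEs of the members' own log2 ratios, so the order of the close genes cannot be read. At BDL day 3 *P4htm*, *Hoxa4* and *2900089D17Rik* had means of only 0.406, 0.391 and 0.654 normalized counts.

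The cell type named in the labels, *Prom1*-expressing progenitors and their progeny, was checked against marker genes. The 12 cholangiocyte markers summed to 102 normalized counts at day 0, 40.4 on day 3 of BDL and 60.5 at BDL day 14, with *Sctr* at the floor at BDL day 3. The 6 general macrophage markers summed to 4751, 8662 and 13787, of which *Lyz2* alone held 2280, 4560 and 11200. The 6 Kupffer cell markers summed to 9467, 21278 and 1288. *Prom1* itself had authors' means of 6.66, 0.956 and 1.76 normalized counts, and *Krt19*, a keratin of bile ducts, 21.5, 12.7 and 14.3. In every group the summed counts of the macrophage lists were thus far above those of the cholangiocyte list. These sums are of different genes, are not per length and are not shares of cells. The study itself reports GFP together with KRT19 by staining and with PROM1 by flow cytometry. The cells are called GFP(+) cells here.

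Several marker lists also differed between the groups. For the list counts here and below, 19.2% of all genes were higher and 29.2% lower by more than 1.5-fold at BDL day 3. At BDL day 14 these shares were 21.2% and 28.8%. Of the Kupffer cell markers, 5 of 6 were higher by more than 1.5-fold at BDL day 3 than at day 0 (median log2 ratio 1.06) and 6 of 6 were lower at BDL day 14 (-3.39). Of the general macrophage markers, 4 of 6 were higher at BDL day 3 (median 0.83) and 1 of 6 at BDL day 14 (0.21). *Clec4f*, which marks Kupffer cells, had authors' means of 4610, 6890 and 185 normalized counts. *Axl* was thus high in the group where Kupffer cell markers were highest, and at BDL day 14, where they were low, *Axl* and *Mertk* were at 358 and 134. Markers of recruited monocyte-derived cells summed to 73.6, 143 and 1645. At BDL day 3, 2 of 5 were higher and 1 lower than at day 0 (median log2 ratio -0.33), and *Chil3* rose from 14.7 to 90.4. At BDL day 14, 4 of 5 were higher and 1 lower (4.61). The part of these cell types in the receptor levels was not tested.

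Markers of sinusoidal endothelial cells were lower by more than 1.5-fold at BDL day 3 in 6 of 7 (median log2 ratio -1.17), and at BDL day 14 1 of 7 was higher and 2 lower than at day 0 (-0.03). Their sums were 991, 580 and 941 normalized counts, so they were lowest in the same group as the 3 ligand genes. The sums of cholangiocyte, of stellate cell and fibroblast, and of dendritic cell markers were also lowest in that group. *Kdr*, a receptor of endothelial cells, had authors' means of 101, 22.5 and 133. *Cdh5* of the same list went the other way, with means of 207, 299 and 81.5. Stellate cell and fibroblast markers were lower in 10 of 10 at BDL day 3 (median -5.10) and in 10 of 10 at BDL day 14 (-3.48), with sums of 1077, 23.0 and 99.5, where the floor was reached by *Lum* at BDL day 3 and by *Lrat* at BDL day 14. Hepatocyte markers were lower in 6 of 9 at BDL day 3 (median -1.93) and in 9 of 9 at BDL day 14 (-2.65), and summed to 3311, 980 and 412. The part of these cell types in the ligand levels was not tested. In bulk samples, fewer cells of a type and less RNA per cell cannot be told apart.

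Markers of other immune cells summed to less than those of macrophages in each group. Neutrophil markers summed to 456, 207 and 125 normalized counts, with *Ly6g* at the floor at BDL day 14. T and NK cell markers summed to 81.8, 19.1 and 4.43, B cell markers to 98.0, 16.1 and 3.19, and dendritic cell markers to 18.1, 5.03 and 20.6, with *Cd209a* at the floor at BDL day 3.

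**Figure D4:**
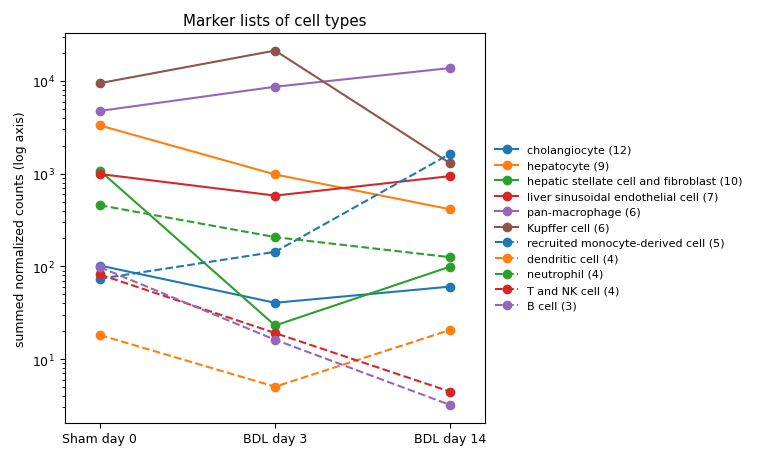
Summed authors' means of the genes of each marker list (number of genes in parentheses) in each group, on a log axis. Kupffer cell markers were highest at BDL day 3 (21278) and low at BDL day 14 (1288), and sinusoidal endothelial markers were lowest at BDL day 3 (580). Markers of cholangiocytes, of stellate cells and fibroblasts, and of dendritic cells were also lowest at BDL day 3.

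Among the other receptors for apoptotic cells, 13 of 15 listed genes were found and 12 passed the minimum. At BDL day 3, 5 were higher and 4 lower than at day 0 by more than 1.5-fold (median log2 ratio 0.36), and at BDL day 14 5 were higher and 2 lower (0.36). *Cd300lb*, a receptor of the CD300 family, had authors' means of 19.8, 80.4 and 53.9 normalized counts, and its libraries could not overlap day 0 at either time. *Timd4*, the phosphatidylserine receptor of resident macrophages and also a Kupffer cell marker, had means of 268, 579 and 12.1, and was 22.1-fold lower at BDL day 14 than at day 0. *Cd36*, a scavenger receptor, was higher at both times, with means of 70.8, 208 and 319. Of the integrin subunits that bind MFG-E8, *Itgav* (30.5, 36.9 and 38.3) and *Itgb5* (226, 307 and 273) were within 1.5-fold of day 0 at both times, and *Itgb3* had means of 8.71, 1.74 and 20.1.

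Of the other bridging molecules and TAM ligands, 9 of 11 were found and 8 passed the minimum, with 4 higher and 2 lower at BDL day 3 and 3 higher and 2 lower at BDL day 14. *Lgals3*, galectin-3, which can bind MERTK, had authors' means of 356, 1550 and 1430 normalized counts, which gave log2 ratios to day 0 of 2.12 ± 0.22 and 2.01 ± 0.20. Its libraries could not overlap day 0 at either time, whereas the means of *Gas6* and *Pros1* were lower at BDL day 3, with an overlap possible for both. *Thbs1*, thrombospondin-1, which links dying cells to CD36, had means of 10.7, 14.4 and 89.3. The lowest ratios were those of *Masp1* at BDL day 3 (49.5 at day 0 and 10.2) and *Mbl2* at BDL day 14 (8.20 at day 0 and 0.175, which is at the floor), both genes of the lectin pathway of complement.

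Vitamin K-dependent carboxylation equips GAS6 and protein S for binding to phosphatidylserine. *Ggcx*, the carboxylase, had authors' means of 8.87, 2.37 and 2.67 normalized counts, and its libraries could not overlap between BDL day 3 and day 0. *Vkorc1*, which regenerates vitamin K, had means of 23.0, 24.7 and 12.8, and was lower at BDL day 14 without a possible overlap with day 0. Of the 5 genes of this list, 0 were higher and 2 lower at BDL day 3 (median log2 ratio 0.02), and 2 were higher and 2 lower at BDL day 14 (0.47). The highest of the list were *Vkorc1l1* at BDL day 3 (log2 ratio 0.57 ± 0.39) and *Aifm2* at BDL day 14 (0.90 ± 0.37).

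Proteases cut TAM receptors from the cell surface, ADAM17 and ADAM10 among them. *Adam17* had authors' means of 66.3, 67.9 and 56.4 normalized counts, within 1.5-fold in all comparisons, and *Adam10* had means of 70.3, 91.8 and 143, with no possible overlap between BDL day 14 and day 0. *Timp3*, an inhibitor of these proteases, was at 90.7, 9.86 and 72.5. *Rhbdf2*, which carries ADAM17 to the surface, was at 24.6, 28.3 and 13.1. In this list of 4, 0 were higher and 1 lower at BDL day 3, and 1 was higher and 1 lower at BDL day 14.

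The nuclear receptors and factors known to drive *Mertk*, with their target genes, were higher in 7 of 10 at BDL day 3 (median log2 ratio 0.75) and in 4 of 10 at BDL day 14 (0.35), and 1 was lower at each time. *Nr1h3*, liver X receptor alpha, had authors' means of 274, 457 and 34.9 normalized counts, and at BDL day 14 its libraries could not overlap day 0. *Abca1*, a cholesterol exporter and target of that receptor, had the highest ratio at both times, with means of 43.3, 103 and 126. *Maf* was the lowest at BDL day 3, with a log2 ratio of -0.79 ± 0.33. At BDL day 14 *Mertk* was at 134 normalized counts and *Nr1h3* was 7.85-fold lower than at day 0. The part of these factors in the level of *Mertk* was not tested.

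Of the 8 genes of TAM signalling and its brakes on cytokines, 2 were higher and 4 lower at BDL day 3 (median log2 ratio -0.49), and 4 were higher and 3 lower at BDL day 14 (0.35). *Socs3*, a suppressor of cytokine signalling, had authors' means of 39.4, 23.3 and 87.0 normalized counts, and *Socs1* was low in each group (1.45, 0.715 and 0.882). *Grb2*, an adaptor of receptor tyrosine kinases, had means of 145, 278 and 145, and its BDL day 3 libraries could not overlap either of the other groups, as was the case for *Axl*. *Ifnar1*, the interferon receptor that TAM receptors work with, was higher at BDL day 14 with a log2 ratio of 1.45 ± 0.24. *Nck2*, an adaptor, had the lowest ratio there (-2.23 ± 0.74), and *Twist1* was at the floor at BDL day 3.

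Downstream of the receptors, the engulfment machinery was mostly within 1.5-fold of day 0. Of 13 genes that passed the minimum, 2 were higher and 1 lower at BDL day 3 (median log2 ratio 0.24), against 19.2% and 29.2% of all genes. At BDL day 14, 3 were higher and 1 lower (0.28), against 21.2% and 28.8%. *Elmo2*, which works with DOCK proteins to switch on the GTPase RAC1, had the highest ratio at BDL day 3 (0.80 ± 0.35) and *Bcar1*, an adaptor, the lowest (-1.94 ± 1.13). *Vav3* was the highest at BDL day 14 (1.88 ± 0.26) and *Ptk2* the lowest (-0.71 ± 0.38).

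Genes that digest engulfed cells had the highest median of the pathway lists at both times. Of its 14 genes, 9 were higher and 1 lower at BDL day 3 (median log2 ratio 0.81) and 7 were higher and 0 lower at BDL day 14 (0.60). For 5 of them at each time the libraries were higher with no possible overlap with day 0. Over all genes this held for 2.93% at BDL day 3 and 3.17% at BDL day 14. *Ctsd*, cathepsin D, had the highest ratio at both times, with authors' means of 1170, 4180 and 4650 normalized counts. *Rubcn*, a regulator of LC3-associated phagocytosis, had means of 14.5, 8.40 and 10.9 and was the lowest at BDL day 3, and *Ucp2* was the lowest at BDL day 14 (log2 ratio -0.50 ± 0.56).

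Genes for the exposure of phosphatidylserine had a median log2 ratio of 0.00 at BDL day 3 and -0.33 at BDL day 14, with 2 higher and 2 lower and then 1 higher and 1 lower of 7. *Ano6*, a scramblase, was the highest at both times, with authors' means of 44.4, 165 and 78.0 normalized counts. *Atp11a*, a flippase, was the lowest at BDL day 3 (log2 ratio -0.94 ± 0.43) and *Xkr8*, a scramblase cut by caspases, at BDL day 14 (-0.70 ± 0.51). Of the 9 find-me signals and their receptors, 1 was higher and 3 lower at BDL day 3 and 3 were higher and 1 lower at BDL day 14. *Cx3cr1*, the fractalkine receptor of monocytes, had means of 11.7, 9.06 and 285, and its ligand *Cx3cl1* means of 2.45, 4.90 and 0.541. *S1pr1*, a receptor for sphingosine-1-phosphate, had the lowest ratio at BDL day 3 (-1.39 ± 0.49).

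Of the 7 genes of don't-eat-me signals, 1 was higher and 4 were lower at BDL day 3 (median log2 ratio -0.96), and 1 was higher and 2 lower at BDL day 14 (0.05). *Cd47* had authors' means of 156, 265 and 161 normalized counts, and *Siglecg*, the receptor of CD24, had the lowest ratio at both times, with means of 5.05, 0.745 and 0.340. *Cd200r1* was the highest at BDL day 14 (log2 ratio 0.94 ± 0.65).

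**Figure D5:**
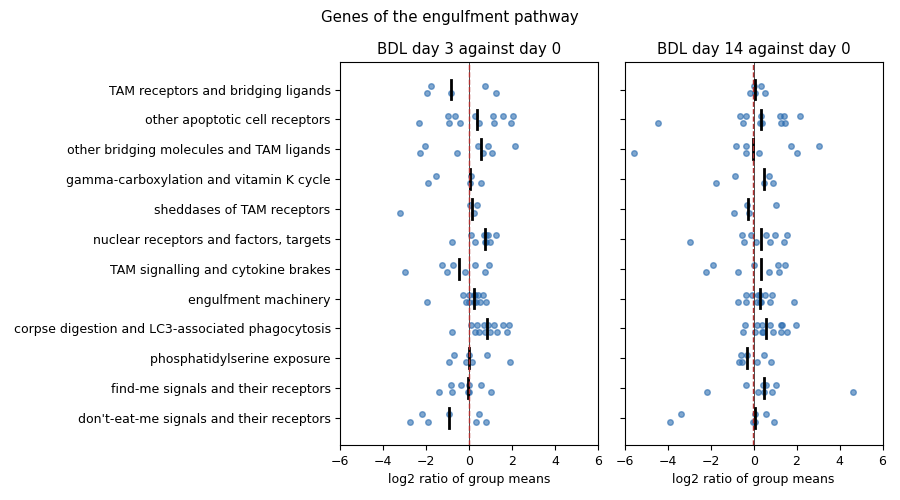
Log2 ratios of the authors' group means for the genes of each list that passed the minimum (points) and the list's median (black bar), at BDL day 3 (left) and BDL day 14 (right) against day 0. The dashed red line is the median of all genes. The members' own list is at the top, with a median of -0.85 (left) and 0.08 (right), where the list of corpse digestion had medians of 0.81 and 0.60. On the left the members were split into 2 higher and 3 lower genes, so their median describes no common shift.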

How the data were processed

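GFP(+) liver cells of 12 libraries in 3 groups were sequenced (Truseq mRNA). The authors trimmed the reads, aligned them with STAR (2.6.1d per the labels) to mm10 in Partek Flow, counted them on GENCODE genes and normalized them by the upper quartile method. The deposited table holds signal values, the authors' mean of normalized counts of each group, and the arithmetic mean, geometric mean and highest library over 10 libraries. Weighted by 3, 3 and 4 libraries, the group means gave back the overall mean with a 99th percentile deviation of 0.469%. It also holds the results of the authors' own 3 comparisons (fold change, ratio and its log2, p-value, FDR and 95% limits), which were not used. The steps were tested on simulated data (Python 3.11.15, numpy 2.4.6).

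Genes were kept at 10 or more summed normalized counts, and a ratio past 1.5-fold was counted. Spread, SE and library limits were computed from the group means, the geometric mean and the highest library, an approach chosen after the data were seen. It assumes log-normal libraries with equal spread in the groups for the SE, and no distribution for the limits, which rest on these group sizes. Gene ends are given 1 base below the table's, which matches GENCODE M21. Named genes were the 6 members, from each pathway list the highest and lowest ratio to day 0, and 12 genes with a part in TAM or MFG-E8 biology. The marker genes named were not all chosen by this rule, and not every extreme of a marker list is named. *Krt19* and *Kdr* and the marker genes at the floor were added afterwards. The members and lists were chosen with earlier results of these data known. Alternatives were other scalings, a pseudocount of 1, other minimums and a 2-fold threshold.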

Additional observations from a re-analysis of the deposited data

How the results depend on the processing

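Of 93 log2 ratios of single genes recomputed under an alternative, 81 kept their direction and their side of 1.5-fold. The sign turned in 7, all for BDL day 14 against day 0. With quantile normalization *Axl* was at -0.11, *Mfge8* at -0.086 and *Tyro3* at 1.11, the last past 1.5-fold. With equal summed signal *Gas6* was at 0.13 and *Tyro3* at 0.22, and without the 100 highest genes *Axl* was at -0.026 and *Mfge8* at -0.085. The other 5 crossed 1.5-fold with the same sign, 3 of *Mertk*, 1 of *Tyro3* and 1 of *Pros1*. The cause was not tested. With a 2-fold threshold 3 of the 5 genes were past it at BDL day 3 against day 0 in place of 5, and with each group scaled to the same summed signal 2 were past 1.5-fold at BDL day 14 against day 0 in place of 0. The median of all genes moved to a log2 ratio of 0.12 (quantile normalization), 0.11 (equal summed signal) and -0.22 (summed signal without the 100 highest genes) at BDL day 3, and to 0.10, 0.29 and -0.14 at BDL day 14. For BDL day 14 against BDL day 3 equal summed signal moved it to 0.19. Leaving out each library was not run, since the table holds no values per library, and no paired analysis was possible because the groups are given as means. The reads behind each mean are not known, so the counting error has no value here.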
